A study of Mus musculus and Homo sapiens with 16 samples.

Results

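The 36 genes described here mark leukocytes that live in or pass through the skin. They were taken by name from the gene annotation in the deposited tables, and all 36 were found among the 39179 annotated genes. They fall into 8 genes grouped as pan-leukocyte, 9 T cell genes, 6 genes of Langerhans cells and antigen presentation, 11 macrophage and monocyte genes and 2 mast cell genes. Of the pan-leukocyte group, Tyrobp and Fcer1g are tied to myeloid, NK and mast cells and not to most leukocytes. The study addressed KLF5, a zinc finger transcription factor, in the mouse skin epithelium. RNA was sequenced from C57BL/6 skin labelled Klf5+/- or Klf5-/- in 2 separate sets, and the labels give no wild type RNA library.

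In the E17.5 set, epidermis was separated from dermis with dispase, dissociated with trypsin and sorted as live (DAPI-), CD45- and integrin alpha 6+ cells, from 3 samples labelled Klf5+/- and 3 labelled Klf5-/-. CD45 is the protein made from Ptprc, a member, so this sort was set against leukocytes. In the second set, titled HFD, which the labels do not spell out, peeled epidermis was ground without any sort, from 2 samples of each genotype. The labels of that set give no age or stage, and those of neither set name an allele, a promoter or a Cre driver. The labels do not state whether the samples within a group are from different animals; the p-values therefore measure only the spread between these samples, which may be technical. H3K27ac, KLF5 and open chromatin (ATAC) peak lists came from sorted E17.5 epithelium, 1 sample each, with the genotype given as wild type. The ATAC sample is titled Het but carries the wild type genotype label.

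Skin holds several resident leukocytes. Langerhans cells sit among the keratinocytes, carry langerin (Cd207) and present antigen on MHC class II. Dendritic epidermal T cells, which carry a gamma delta receptor on the CD3 complex, also sit in mouse epidermis. Macrophages and mast cells are mainly dermal. Macrophages depend on the growth factor receptor Csf1r, which binds Csf1 and Il34, and mast cells store proteases such as carboxypeptidase A3 (Cpa3) and Mcpt4. In bulk RNA, fewer cells of a type and less RNA per cell cannot be told apart.

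Promoters of 27 members were matched in RefSeq (GRCm38.p6, the mm10 build), and an ATAC peak of the sorted epithelium overlapped 4 of them. The 3 of these that hold a match to a motif searched are printed, and the fourth, that of Il2rg, held none. Each runs from 5′ to 3′ on the gene's strand over the 250 bases before the RefSeq start. Capitals mark the GC and GT box of KLF and SP factors (GGGNGGGG) and the CCAAT box (CCAAT), on either strand. Lcp1 (chr14:75130873-75131122, plus strand) encodes L-plastin, an actin bundling protein of leukocytes. Cd68 (chr11:69666171-69666420, minus strand) encodes a lysosomal glycoprotein of macrophages. H2-Aa (chr17:34287824-34288073, minus strand) encodes the alpha chain of an MHC class II molecule.
Lcp1: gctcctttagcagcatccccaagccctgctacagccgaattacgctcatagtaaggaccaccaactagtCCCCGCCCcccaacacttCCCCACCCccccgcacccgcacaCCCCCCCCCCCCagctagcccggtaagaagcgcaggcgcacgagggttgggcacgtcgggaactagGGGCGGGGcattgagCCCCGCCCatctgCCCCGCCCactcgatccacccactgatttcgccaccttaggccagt
Cd68: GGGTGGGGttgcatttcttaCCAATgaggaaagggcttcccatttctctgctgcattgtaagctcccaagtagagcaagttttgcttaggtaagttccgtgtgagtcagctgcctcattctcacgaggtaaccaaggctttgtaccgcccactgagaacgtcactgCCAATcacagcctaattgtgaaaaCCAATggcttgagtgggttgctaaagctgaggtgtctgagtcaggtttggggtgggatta
H2-Aa: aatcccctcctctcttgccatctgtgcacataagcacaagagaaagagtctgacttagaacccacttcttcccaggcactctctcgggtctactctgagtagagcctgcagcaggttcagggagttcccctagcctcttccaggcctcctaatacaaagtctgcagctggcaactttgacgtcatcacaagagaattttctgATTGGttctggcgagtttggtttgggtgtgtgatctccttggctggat
The Lcp1 window held 10 matches to the GC and GT box, some of them separate and the rest overlapping within a run of C. The Cd68 window held 1 such match and 3 CCAAT boxes, and the H2-Aa window held 1 CCAAT box. Among the 27 matched promoters, 4 held a GC or GT box (Cd68, Laptm5, Lcp1 and Ltb), against 30.5% of all 27025 promoters of the same length. CCAAT occurred in 10 of the 27, against 34.5% of all promoters. The PU.1 box GAGGAAGT, named for a factor of myeloid cells, was in none of the 27 windows and in 2.44% of all. A match describes letters and not a bound site.

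Depth on annotated genes ran from 31819010 to 46445546 counts over the 10 RNA libraries. Levels below are CPM, the count scaled to the size of its library with 1 TMM scaling for all 10. By library totals alone, without that scaling, 3 counts stood for 0.0646 to 0.0943 CPM. The TMM factors on library size ran from 0.786 to 1.17, so the level of 3 counts differs from these values on the scale used below. Differences are log2 fold changes from edgeR, called where the adjusted p was under 0.05. Klf5 RNA did not fall under the label Klf5-/- in either set. At E17.5 it had 8376, 6609 and 6624 counts under the label Klf5+/- against 6934, 7211 and 6501 under Klf5-/- (0.02, edgeR adjusted p = 0.982). In HFD it had 2523 and 1575 counts under Klf5+/- against 2953 and 4956 under Klf5-/- (1.06, edgeR adjusted p = 0.0533), or 49.0 to 74.2 against 118 to 140.1 CPM, so that both libraries labelled Klf5-/- lay above both others, against the label. Every direction between genotypes below is a direction between labels. Keratinocyte markers were high in every library, with Krt5 at 10782 to 15441 CPM at E17.5 and 4532 to 10880 CPM in the HFD set. The HFD libraries also held RNA of other skin cells. Col1a1, the main fibroblast collagen, was at 1.02 to 10.3 CPM at E17.5, at 3343 and 3956 CPM in the HFD libraries labelled Klf5+/-, and at 861 and 102 CPM in those labelled Klf5-/-.

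RNA of leukocyte genes was present in the CD45- sorted embryonic epithelium, and most member genes were higher in the unsorted HFD libraries. Of 34 members tested, 27 were higher and 1 was lower in HFD than in E17.5 libraries labelled Klf5+/-. Over all genes tested 61.0% passed, 32.1% as higher and 28.9% as lower, and the median log2 difference was 2.74 for the members and 0.01 for all genes. Among libraries labelled Klf5-/-, 28 of 34 were higher and 0 lower, against 55.2% of all genes called and 28.5% called higher, with a median of 2.37 for the members. Scaled to library totals, the median of all genes moved to -0.21 and -0.51, the split of all genes called under Klf5-/- went from 4912 higher and 4616 lower to 3205 and 7775, and the members called there became 25 higher and 1 lower (Cx3cr1). Of the 34, Cd2, Cd3e, Cd4, Il7r, H2-Aa, Cd163, Clec10a and Mcpt4 had too few counts to test in the E17.5 set alone. They entered this fit mainly through their HFD counts, so a higher level in HFD was largely fixed in advance for them. They are part of the counts and medians above. Sort, preparation and library kit go with the set and cannot be told apart, and the labels give no stage for HFD.

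**Figure D1:**
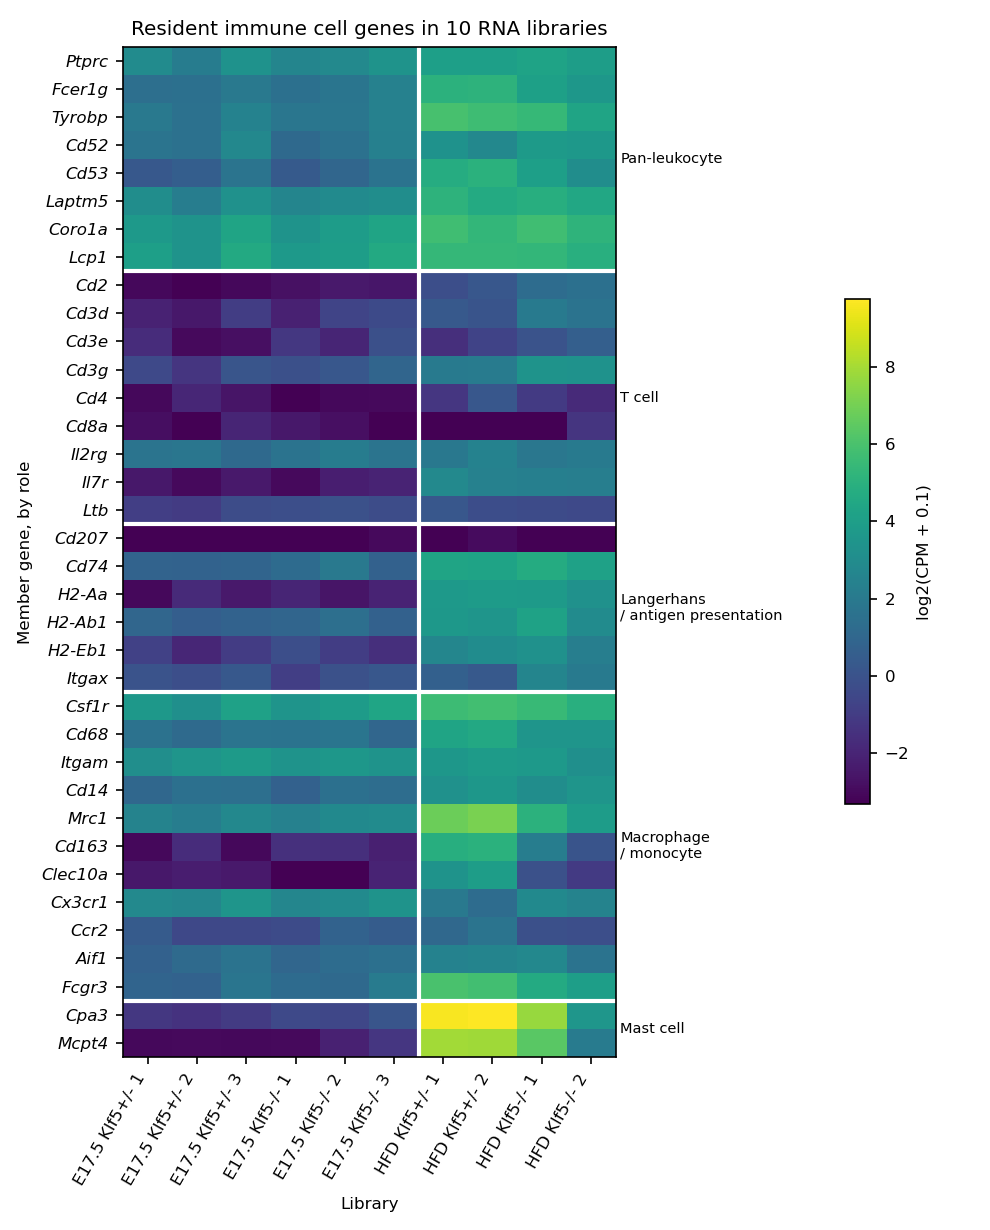
Level of each of the 36 member genes (rows, grouped by role) in each of the 10 RNA libraries (columns), as log2 of CPM plus 0.1. Mast cell rows go from the lowest colours at E17.5 to the highest in the HFD libraries labelled Klf5+/-, while the Cd207 row is dark in all 10 libraries.

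The sort marker's own gene was detected in all 6 sorted libraries. Ptprc was at 7.66, 4.32 and 10.2 CPM in the E17.5 libraries labelled Klf5+/- and at 6.02, 7.07 and 10.4 CPM in those labelled Klf5-/-. In the HFD set it was at 16.5 and 16.6 CPM and at 19.3 and 15.3 CPM. All HFD libraries lay above all sorted ones, by 1.16 (SE 0.32, edgeR adjusted p = 0.00864) on the log2 scale between libraries labelled Klf5+/- and by 1.14 (SE 0.32, edgeR adjusted p = 0.0109) between those labelled Klf5-/-. The latter call was lost when the first HFD library labelled Klf5-/- was left out (edgeR adjusted p = 0.0685) and with library totals (0.113). Among the 8 pan-leukocyte members the difference between libraries labelled Klf5+/- ran from 0.97 for Cd52 to 3.97 for Cd53, a tetraspanin. Cd52, a small surface glycoprotein, did not pass (edgeR adjusted p = 0.0662). Of the 8, 7 passed as higher, where 32.1% of all genes did.

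Per kilobase of exon, the most abundant members at E17.5 were genes grouped as pan-leukocyte, followed by macrophage members. In libraries labelled Klf5+/- the adaptor Tyrobp was at 7.13 CPM per kb, the actin regulator Coro1a at 5.22, the Fc receptor chain Fcer1g at 3.87, Cd52 at 3.58 and Csf1r at 2.69, followed by Cd68 and the fractalkine receptor Cx3cr1. In the HFD libraries labelled Klf5+/- the order was led by Cpa3 at 571 CPM per kb and Mcpt4 at 240.3, then Tyrobp at 101, Fcer1g at 42.7, the IgG receptor Fcgr3 at 34.2 and the mannose receptor Mrc1 at 21.2.

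Both mast cell members had few counts at E17.5 and were the most abundant members in the HFD libraries labelled Klf5+/-. Cpa3 was at 0.332, 0.27 and 0.378 CPM in the E17.5 libraries labelled Klf5+/- and at 791 and 854 CPM in the HFD libraries labelled Klf5+/-, a log2 difference of 11.27 (SE 1.35, edgeR adjusted p = 0.000331). Mcpt4, a chymase of connective tissue mast cells, had 1 count in each of the E17.5 libraries labelled Klf5+/- and 8195 and 7473 counts in the HFD ones. Of 12 further mast cell genes 10 were higher in HFD and 1, the prostaglandin D synthase Hpgds, was lower. Over all genes 32.1% were higher and 28.9% lower. The higher ones included the chymase Cma1 (11.51, edgeR adjusted p = 0.000593) and the tryptase Tpsb2 (10.58, 0.000276).

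Macrophage members differed among themselves between the sets. Csf1r was at 12.5, 9.03 and 17.7 CPM in the E17.5 libraries labelled Klf5+/- and at 50.1 and 55.4 CPM in the HFD ones, a log2 difference of 2.01 (SE 0.31, edgeR adjusted p = 0.000353). The haemoglobin scavenger receptor Cd163 had 1, 8 and 1 counts at E17.5 and 983 and 1055 in HFD, and the lectin Clec10a had 4, 4 and 4 against 352 and 496. Itgam, the integrin CD11b, was nearly level, at 8.77, 11.0 and 14.0 CPM at E17.5 and 12.1 and 14.4 CPM in HFD, with ranges that overlapped (0.24, SE 0.23, edgeR adjusted p = 0.371). Cx3cr1 was the member that stood lower in HFD, at 7.07, 6.38 and 11.2 CPM at E17.5 against 3.76 and 2.39 CPM (-1.42, SE 0.34, edgeR adjusted p = 0.00362).

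Langerin was at the limit of detection in both sets. Cd207 had 1 count in the third E17.5 library labelled Klf5-/- and 1 count in the second HFD library labelled Klf5+/-, and 0 in the other 8 libraries. At these depths 0 counts allow up to 0.0646 to 0.0943 CPM by library totals alone, without the TMM scaling. Genes of antigen presentation, which Langerhans cells share with dendritic cells, macrophages and B cells, were detected. H2-Aa had 1, 7 and 4 counts in the E17.5 libraries labelled Klf5+/- and 6, 3 and 6 in those labelled Klf5-/-, against 455, 461, 348 and 347 in HFD. Its beta chain partner H2-Ab1 was at 1.86, 1.41 and 1.64 CPM at E17.5 and at 12.3 and 11.0 CPM in HFD among libraries labelled Klf5+/- (2.83, SE 0.36, edgeR adjusted p = 6.45e-05). The invariant chain Cd74 differed by 3.50 (SE 0.31, edgeR adjusted p = 5.98e-06) and the second beta chain H2-Eb1 by 4.34 (SE 0.53, 4.9e-05). Itgax did not pass under Klf5+/- (0.50, SE 0.43, edgeR adjusted p = 0.33) and was higher in HFD under Klf5-/- (2.67, SE 0.42, 0.0003). MHC class II genes, Fcgr3, Mcpt4 and Cma1 have near relatives in the genome, and how reads that fit several genes were treated is not stated in the labels.

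T cell members were low at E17.5 and mostly higher in HFD. In each genotype 5 of 8 tested passed as higher, where 32.1% (Klf5+/-) and 28.5% (Klf5-/-) of all genes did. Only 4 T cell members had enough counts to test in the E17.5 set alone. Cd3e, the epsilon chain of the T cell receptor complex, was at 0.215, 0.027 and 0.0445 CPM at E17.5 and at 0.235 and 0.529 CPM in HFD among libraries labelled Klf5+/- and did not pass (1.90, SE 0.94, edgeR adjusted p = 0.0998). Cd3g, the gamma chain, was at 0.625, 0.297 and 1.00 CPM against 3.94 and 4.23 CPM (2.65, SE 0.45, edgeR adjusted p = 0.000422). The interleukin 7 receptor Il7r had 4, 1 and 4 counts at E17.5 and 241 and 167 in HFD. The co-receptors of conventional T cells stayed low, with Cd4 at no more than 1.09 CPM and Cd8a at 0 counts in 3 of 4 HFD libraries and 11 in the second labelled Klf5-/-. The common cytokine receptor chain Il2rg differed by 0.64 and 0.09 between the sets in the 2 genotypes and did not pass in either (edgeR adjusted p = 0.106 and 0.839).

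**Figure D2:**
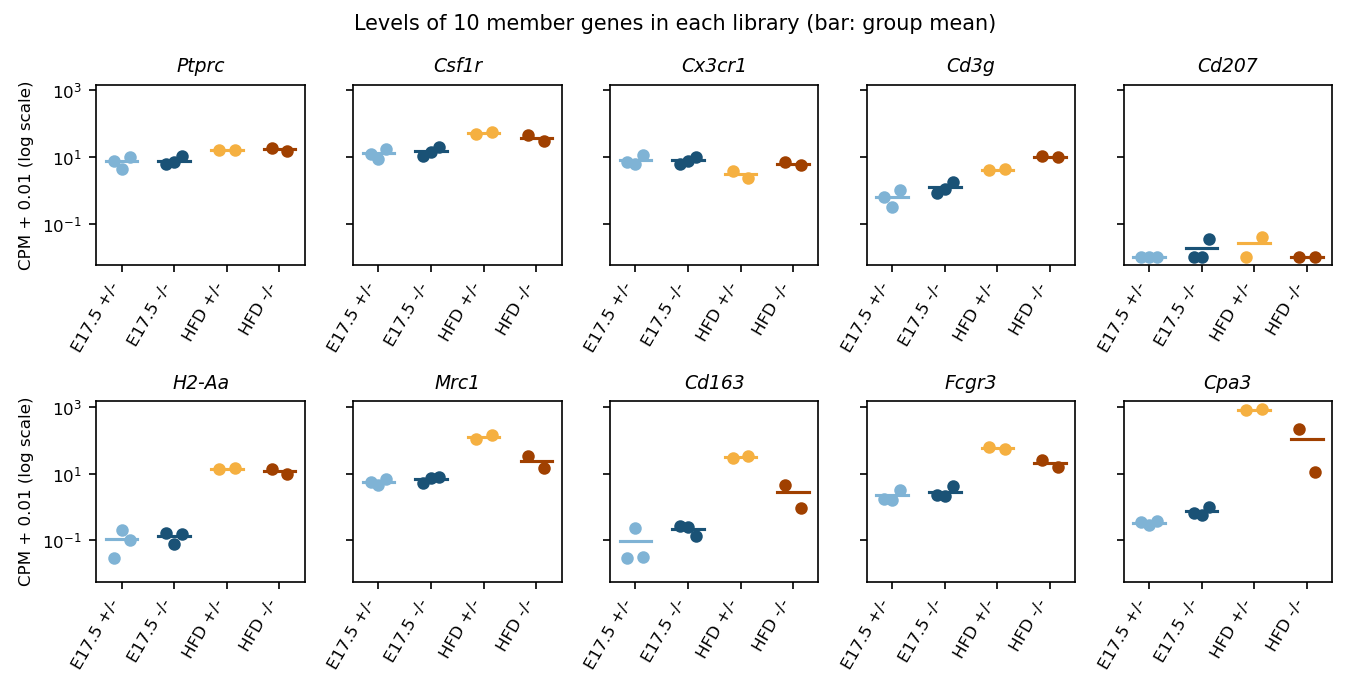
Level of 10 member genes in each library (points) and the group mean (bars), on a log axis of CPM plus 0.01, with sorted E17.5 libraries in blue and HFD libraries in orange and brown. Cpa3, Cd163 and H2-Aa differ between the sets by the most, Cx3cr1 is lower in HFD, and the second HFD library labelled Klf5-/- lies lowest for Mrc1, Cd163, Fcgr3 and Cpa3 among the 4 HFD libraries.

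In the sorted E17.5 epithelium the members did not separate the genotypes. The 10 members with too few counts to test were Cd207, Cd8a, Cd2, Cd3e, Cd4, Il7r, H2-Aa, Cd163, Clec10a and Mcpt4. Of 26 members with enough counts to test, 0 passed in edgeR, against 0.0861% of all 15092 genes (0.0331% higher and 0.053% lower), and 1 had an unadjusted p under 0.05. DESeq2 also called 0 members, with 2 at an unadjusted p under 0.05. The median log2 difference was 0.16 over the members and 0.01 over all genes, with 18 members above 0 and 8 below. Ptprc differed by 0.09 (SE 0.31, edgeR adjusted p = 0.971), Csf1r by 0.22 (SE 0.30, 0.905) and Mrc1 by 0.25 (SE 0.21, 0.82).

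The member with the smallest unadjusted p at E17.5 was Cpa3. Its counts were 17, 10 and 17 in the libraries labelled Klf5+/- and 25, 26 and 41 in those labelled Klf5-/-, without overlap, and it did not pass (1.16, SE 0.46, edgeR adjusted p = 0.404). Over all genes tested 6.29% did not overlap in that direction and 8.52% in the other, where no member did. Cd3g was at 0.82, 1.09 and 1.83 CPM in the libraries labelled Klf5-/- (0.95, SE 0.49, edgeR adjusted p = 0.594), which overlapped those labelled Klf5+/-. The summed level of the pan-leukocyte members varied within each genotype, at 56.7, 39.1 and 82.8 CPM and at 45.1, 56.2 and 81.2 CPM. Erythroid markers, summed over 8 genes, were at 14.3, 84.6 and 1017 CPM and at 240.6, 679 and 2462 CPM in the same order. The library numbered 3 was highest in both sums in each genotype, and the part of blood cells in these levels was not tested. Fibroblast markers stood at a median of 1.03 in libraries labelled Klf5-/-, 0 of 14 passing, with Col3a1 at 8.22, 4.78 and 4.58 against 14.2, 23.9 and 31.9 CPM (edgeR adjusted p = 0.0945).

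In the HFD set, 4 members expressed by myeloid cells were lower in the libraries labelled Klf5-/-. They were the lectin Clec10a, the mannose receptor Mrc1, the low affinity IgG receptor Fcgr3 and the Fc receptor gamma chain Fcer1g, of 34 tested, Cd207 and Cd8a having too few counts. None of the 34 passed as higher. Over all 15848 genes 5.5% passed, 4.02% as lower and 1.48% as higher, or 637 and 235 genes. With library totals the split was 1202 and 138 genes, the median of all genes moved to -0.23, and 5 members were lower. The median was -0.27 over the members and -0.01 over all genes, and the roles differed, with medians of -0.98 for macrophage, -2.65 for mast cell, -0.23 for pan-leukocyte and 0.52 for T cell members. Antigen presentation members had a median of 0.16, which was -0.07 with library totals.

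Clec10a (chr11:70156197-70170834, plus strand), a galactose binding lectin of macrophages and dendritic cells, was at 10.4 and 15.4 CPM in the libraries labelled Klf5+/- and at 0.84 and 0.368 CPM in those labelled Klf5-/-. The log2 difference was -4.45 (SE 0.52, edgeR adjusted p = 0.0337). Mrc1 (chr2:14229414-14332057, plus strand), which takes up mannosylated ligands, was at 111 and 140.2 CPM against 33.9 and 14.9 CPM (-2.38, SE 0.43, edgeR adjusted p = 0.0473). Both libraries labelled Klf5-/- lay below both others for each gene, as for 32.2% of all genes, and the second lay lowest.

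Fcgr3 (chr1:171051174-171064935, minus strand) was at 63.8 and 54.4 CPM in the libraries labelled Klf5+/- and at 25.5 and 16.1 CPM in those labelled Klf5-/- (-1.52, SE 0.27, edgeR adjusted p = 0.0398). Fcer1g (chr1:171229572-171234365, minus strand), the signalling chain that Fc receptors of macrophages and mast cells share, was at 33.7 and 34.2 CPM against 17.001 and 12.2 CPM (-1.23, SE 0.24, edgeR adjusted p = 0.0443). These calls rest on the pair of libraries labelled Klf5+/-. Without the first of them only Clec10a passed, and without the second none did, with edgeR adjusted p from 0.0996 for Clec10a to 0.206 for Fcer1g. Without the first or the second library labelled Klf5-/- the members called numbered 16 and 13, all 4 genes among them. Mrc1 was also not called without the low-count filter (edgeR adjusted p = 0.0824) or with the replicate number as a block (-2.48, 0.0962).

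The other pan-leukocyte members did not pass. Tyrobp, which pairs with activating receptors of myeloid and NK cells, was at 61.2 and 51.8 against 43.3 and 19.6 CPM (-0.85, SE 0.38, edgeR adjusted p = 0.22), and Cd53 at 26.998 and 31.9 against 16.5 and 8.51 CPM (-1.25, SE 0.35, 0.0869). Cd53 passed with DESeq2 (DESeq2 adjusted p = 0.0123) and without the low-count filter (edgeR adjusted p = 0.0106), but not with library totals (0.0537). Cd52 stood above 0, at 9.91 and 6.72 against 13.6 and 12.3 CPM (0.63, SE 0.28, edgeR adjusted p = 0.214). Lcp1 was at 41.4 and 41.2 against 40.2 and 30.1 CPM (-0.24, edgeR adjusted p = 0.507), and Laptm5, a lysosomal protein of blood cells, and Coro1a overlapped between the labels at -0.23 and -0.07.

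Several macrophage members did not pass but lay apart between the labels. Cd163 was at 28.9 and 32.8 CPM against 4.52 and 0.933 CPM (-3.53, SE 0.78, edgeR adjusted p = 0.0726), and passed with DESeq2 (-3.49, DESeq2 adjusted p = 3.2e-07). It did not pass without the low-count filter (edgeR adjusted p = 0.248) or with the replicate block (0.0937). The chemokine receptor Ccr2 of monocytes was at 2.00 and 3.17 against 0.80 and 0.792 CPM (-1.71, edgeR adjusted p = 0.10), and Cd68 at 19.7 and 23.8 against 11.2 and 11.0 CPM (-0.98, 0.0611). Cd68 passed with DESeq2 (DESeq2 adjusted p = 0.00733), without the low-count filter (edgeR adjusted p = 0.0172) and with library totals (0.0347). It did not pass with the replicate block (edgeR adjusted p = 0.0621). Csf1r and Cx3cr1 also lay apart, in opposite directions, without passing. Csf1r stood at 50.1 and 55.4 against 45.04 and 30.6 CPM (-0.49, SE 0.24, edgeR adjusted p = 0.245), and Itgam, Aif1 and Cd14 overlapped. Cx3cr1 was at 3.76 and 2.39 against 7.12 and 5.65 CPM (1.05, SE 0.38, edgeR adjusted p = 0.148). Of the 11 macrophage members, 7 lay lower and 1 higher without overlap, where 32.2% and 27.8% of all genes did.

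Mast cell members varied most between the libraries labelled Klf5-/-. Cpa3 was at 791 and 854 CPM in the libraries labelled Klf5+/- and at 211 and 11.5 CPM in those labelled Klf5-/-, and did not pass (-2.89, SE 1.44, edgeR adjusted p = 0.302). Mcpt4 was at 241 and 232 against 85.2 and 4.30 CPM (-2.41, SE 1.43, edgeR adjusted p = 0.368). The second library labelled Klf5-/- held 0.0533 times the summed mast cell level of the first. Without it the Cpa3 difference was -1.93 (edgeR adjusted p = 4.89e-06), and without the first -6.14 (7.86e-12), each fit assuming that the lone library varies like the other group.

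Of the 8 T cell members tested 0 passed, and 4 stood above 0 and 4 below. Cd3g was at 3.94 and 4.23 CPM against 10.5 and 10.0 CPM (1.32, SE 0.29, edgeR adjusted p = 0.0539). Cd3d, the delta chain, was at 1.15 and 0.933 against 4.12 and 3.05 CPM (1.77, SE 0.45, edgeR adjusted p = 0.0712), Cd3e at 0.235 and 0.529 against 0.92 and 1.47 CPM (1.63, 0.202) and the adhesion molecule Cd2 at 0.794 and 1.06 against 2.32 and 2.77 CPM (1.45, 0.124). In these 4 genes both libraries labelled Klf5-/- lay above both others, and in Il7r and Ltb both lay below, where 27.8% and 32.2% of all genes did so. DESeq2 called Cd3d and Cd3g (DESeq2 adjusted p = 0.0102 and 0.00105). Il7r, Il2rg, Ltb and Cd4 stood below 0, at -0.35, -0.29, -0.44 and -1.37, none passing.

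Antigen presentation and the CD45 gene itself were close to level. Cd74, which is also a receptor for the cytokine Mif, was at 19.4 and 19.0 against 25.7 and 17.8 CPM (0.17, SE 0.25, edgeR adjusted p = 0.701). H2-Ab1 (0.16, edgeR adjusted p = 0.847) and H2-Eb1 (edgeR adjusted p = 0.999) overlapped between the labels. H2-Aa was at 13.4 and 14.3 against 13.9 and 9.81 CPM (-0.23, SE 0.27, edgeR adjusted p = 0.622) and Ptprc differed by 0.06 (SE 0.23, 0.899). The integrin Itgax, CD11c of dendritic cells, was the exception in its group, at 1.4999 and 1.15 against 5.96 and 4.04 CPM (1.91, SE 0.43, edgeR adjusted p = 0.0578). It passed with DESeq2 (DESeq2 adjusted p = 0.00201).

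**Figure D3:**
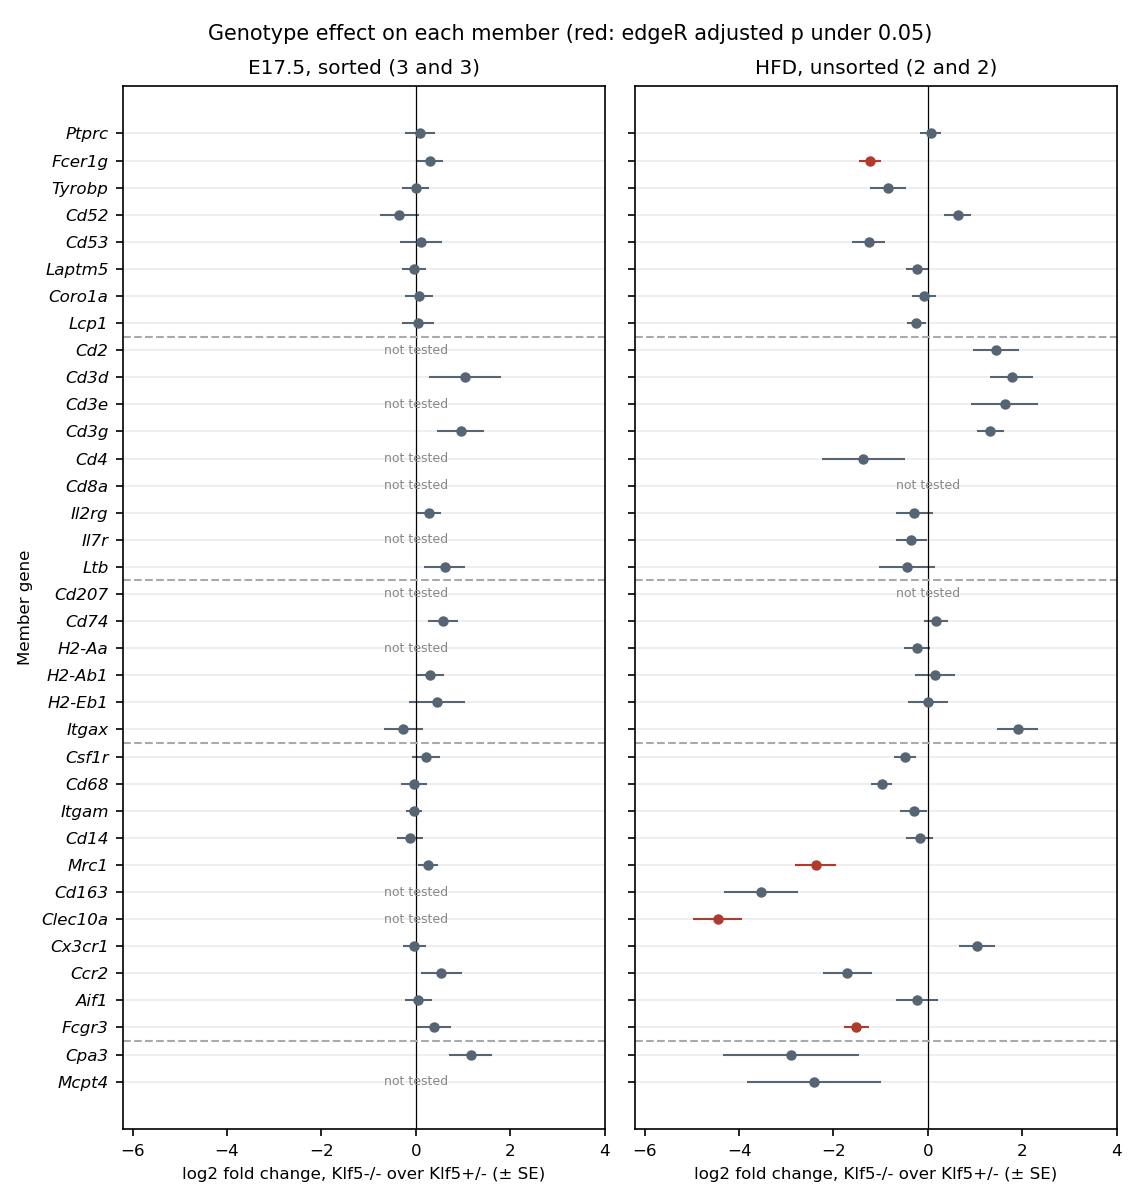
Log2 fold change of each member between libraries labelled Klf5-/- and Klf5+/- (points, with SE as bars) in the sorted E17.5 set (left) and the HFD set (right), with members that passed in red and dashed lines between roles. No point is red at E17.5, and the 4 red points in HFD (Clec10a, Mrc1, Fcgr3 and Fcer1g) lie below 0.

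Markers of other skin cells also stood apart between the labels in the HFD set, though most did not pass. Over all genes 4.02% passed as lower and 1.48% as higher. Fibroblast markers, 16 of 16 tested, stood below 0 in libraries labelled Klf5-/- with a median of -2.61, 2 passing, and their summed level was 22474 and 26094 CPM against 6324 and 1233 CPM. Endothelial markers had a median of -3.09 with 3 of 10 passing and sums of 470.0 and 510.3 against 95.6 and 20.3 CPM, and adipocyte markers -2.14 with 3 of 7 passing. Erythroid markers had a median of -1.38 with 4 of 7 passing. Skeletal muscle markers also differed within the genotype, with sums of 3877 and 1077 against 1214 and 123 CPM. Keratinocyte markers stood at a median of 0.71, 1 of 12 passing, with sums of 38824 and 30840 against 67827 and 71341 CPM. Each of these calls was lost without the second HFD library labelled Klf5+/-, and all but those of Thy1 and Fabp4 also without the first. The keratinocyte call, Krt1, was also lost with library totals (edgeR adjusted p = 0.0581).

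Like the fibroblast and endothelial sums, the summed macrophage members were lowest in the second library labelled Klf5-/-, at 317 and 360 against 157 and 103 CPM. So were the mast cell members, at 1032 and 1086 against 297 and 15.8 CPM, and the pan-leukocyte members, at 278 and 248 against 232 and 156 CPM. Within the pan-leukocyte sum, Tyrobp, Fcer1g, Cd53 and Lcp1 lay lower under Klf5-/- and Cd52 higher, while Ptprc, Laptm5 and Coro1a overlapped. Adipocyte sums (812 and 1259 against 198 and 314 CPM) and erythroid sums (1062 and 1081 against 377 and 487 CPM) were lowest in the first. The T cell members were higher under Klf5-/-, at 18.2 and 19.2 against 27.3 and 27.2 CPM. Antigen presentation members were at 52.9 and 53.5 against 73.8 and 44.0 CPM. The part of these other cells in the differences between genotypes was not tested.

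**Figure D4:**
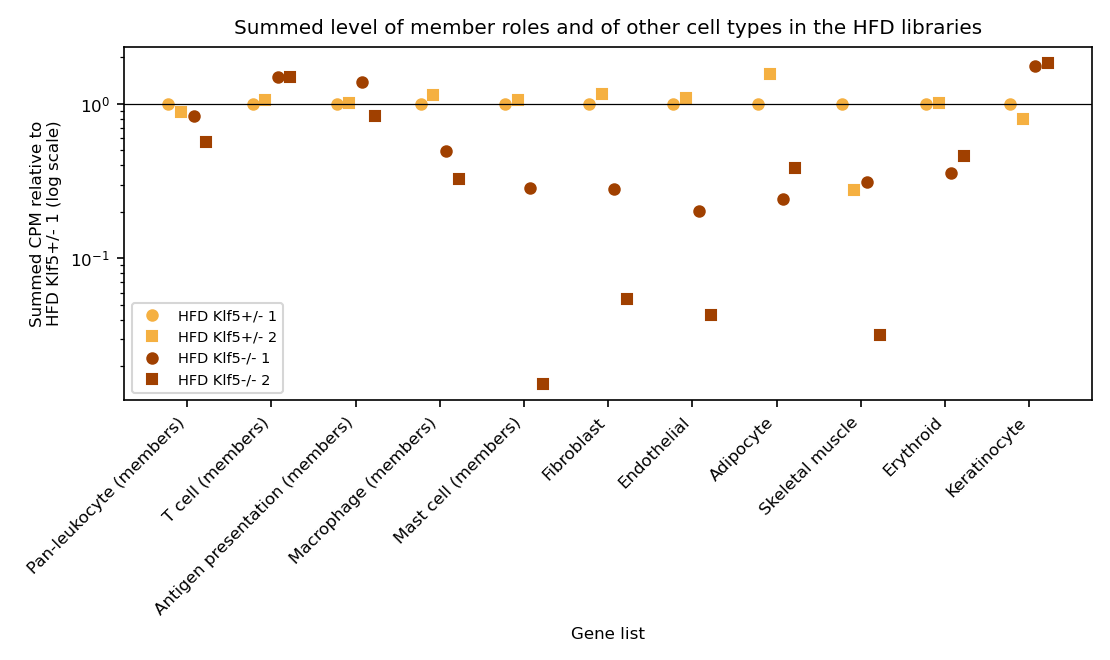
Summed CPM of each member role and of markers of other cell types in the 4 HFD libraries, relative to the first library labelled Klf5+/- (log axis). Macrophage, mast cell, fibroblast and endothelial sums lie lower in both libraries labelled Klf5-/- and lowest in the second, while T cell and keratinocyte sums lie higher in both.

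Further genes of the same cells came from lists that hold no member. Between the labels in HFD, 4.02% of all genes passed as lower and 1.48% as higher. Of 22 further macrophage genes tested, 3 were lower and 0 higher in libraries labelled Klf5-/-, with a median of -1.01. They were the scavenger receptor Msr1, at 19.1 and 16.4 against 3.16 and 1.89 CPM (-2.83, edgeR adjusted p = 0.0337), the lysozyme Lyz2 (-1.87, 0.0393) and the folate receptor Folr2 (-3.00, 0.044). The complement gene C1qa and the macrophage marker Adgre1 did not pass (-0.92 and -0.85, edgeR adjusted p = 0.0832 and 0.259). Of 12 further mast cell genes 10 stood below 0, where 8009 of all 15848 genes did. None of the 10 passed, while Hpgds was higher (1.30, edgeR adjusted p = 0.0415). Hpgds was also at 95.9 to 124 CPM in the sorted E17.5 libraries, where Cpa3 was under 1 CPM.

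Of 21 further T and NK cell genes, 16 stood above 0 with a median of 0.84, where 7839 of all 15848 genes stood above 0. Of the 21, 1 passed as higher and 1 as lower, against 1.48% and 4.02% of all genes. Trbc2, a constant segment of the T cell receptor beta chain, was higher, at 12.5 and 13.6 against 29.8 and 35.96 CPM (1.33, edgeR adjusted p = 0.038). It was however also at 8.56 to 12.7 CPM in the sorted E17.5 libraries, where Cd3e was under 1 CPM. Thy1, which fibroblasts express too, was lower, at 163 and 180 against 47.4 and 38.9 CPM (edgeR adjusted p = 0.032). Tcrg-C1, a constant segment of the gamma chain, was at 0.823 and 0.653 against 3.16 and 2.23 CPM (1.85, edgeR adjusted p = 0.0793). Of 16 further Langerhans and dendritic genes, the costimulatory receptor Cd40 (-3.61, 0.0412) and the cytokine receptor chain Csf2rb (-1.16, 0.045) were lower. Of 7 neutrophil markers tested 0 passed, and Ly6g had 0 or 1 count in every library. Each call in this and the preceding paragraph was lost without the second HFD library labelled Klf5+/-, and all but that of Thy1 also without the first, the highest adjusted p being 0.305 for Csf2rb.

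Ligands of member receptors moved in the HFD set too. Of 12 tested, 3 were lower and 1 higher in libraries labelled Klf5-/-, where 5.5% of all genes passed. At E17.5 0 of 8 passed, where only 0.0861% of all genes did. Ccl2 and Ccl7, chemokines that bind Ccr2, were at 5.71 and 6.59 against 1.12 and 0.678 CPM (-2.79, SE 0.45, edgeR adjusted p = 0.038) and at 4.71 and 5.47 against 0.44 and 0.283 CPM (-3.83, SE 0.49, edgeR adjusted p = 0.0337). Il7, the ligand of Il7r, had 29 and 34 counts against 0 and 1 (edgeR adjusted p = 0.0438) and 0 counts in all 6 E17.5 libraries. Mif, which binds Cd74, was at 113 and 119 against 238 and 319 CPM (1.26, SE 0.20, edgeR adjusted p = 0.038).

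The 2 ligands of Csf1r stood apart from each other. Csf1 was at 22.9 and 34.2 against 11.0 and 12.4 CPM in HFD (-1.30, SE 0.28, edgeR adjusted p = 0.0513). Il34, the ligand that keratinocytes make, was at 19.2 and 21.1 against 24.2 and 30.5 CPM (0.43, SE 0.22, edgeR adjusted p = 0.266), and at E17.5 at 44.0, 44.3 and 39.0 against 26.99, 21.1 and 39.2 CPM (-0.54, SE 0.20, edgeR adjusted p = 0.384). The stem cell factor gene Kitl, needed by mast cells, was at 74.1 and 85.1 against 53.4 and 42.5 CPM (-0.74, edgeR adjusted p = 0.0763). Kitl was counted among the ligands although its receptor Kit is not a member. Cx3cl1, the ligand of Cx3cr1, differed by 0.76 with overlap (0.441). The 4 calls of ligands were lost when either HFD library labelled Klf5+/- was left out, with edgeR adjusted p up to 0.159 for Ccl2 and 0.208 for Il7.

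Whether the genotype difference itself differed between the sets was tested in a fit of all 10 libraries. Of 34 members 5 passed, 1 as higher and 4 as lower, against 14.7% of all genes, 7.07% as higher and 7.61% as lower, with a median of -0.50 for the members and -0.02 for all genes. Mrc1 had the smallest adjusted p, with 5.72, 4.46 and 6.85 against 5.23, 7.30 and 7.71 CPM at E17.5 and the gap given above in HFD (-2.62, SE 0.46, edgeR adjusted p = 0.00747). At E17.5 Fcgr3 was at 1.76, 1.59 and 3.24 against 2.31, 2.11 and 4.18 CPM and Fcer1g at 2.66, 2.73 and 3.85 against 2.69, 3.33 and 5.24 CPM, each with overlap. In the test of the difference Cd163 (-4.91, SE 1.19, edgeR adjusted p = 0.0242), Fcgr3 (-1.89, SE 0.51, 0.0345) and Fcer1g (-1.51, SE 0.40, 0.0293) went the same way, and Itgax the other way (2.18, SE 0.61, 0.0361). Cd163 rested at E17.5 on 1, 8 and 1 counts under the label Klf5+/- and 10, 11 and 5 under Klf5-/-. With library totals Itgax did not pass (edgeR adjusted p = 0.0548) and the split of all genes called went from 1221 higher and 1313 lower to 569 and 2469. Mrc1 passed in each of the 10 fits that left out 1 library, and it alone passed without either HFD library labelled Klf5+/-. In the same fit 11 of 16 fibroblast and 6 of 10 endothelial markers were called lower.

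At the level of chromatin, member promoters carried few peaks in the sorted E17.5 epithelium. Within 1 kb of the annotated gene start, 0 of 36 members had an H3K27ac peak, against 25.2% of all genes. For KLF5 it was 0 of 36, against 8.17%, and for ATAC 8 of 36, against 37.7%. Among genes tested at E17.5 in the same range of expression as the members, the shares were 35.2%, 10.5% and 64.1%, against 0, 0 and 6 of the 26 members tested. The 8 with an ATAC peak were Fcgr3, H2-Ab1, Cd14, Lcp1, Cd68, H2-Aa, Il2rg and Cd163, with the authors' fold enrichment from 3.42 at Cd163 to 7.47 at Fcgr3, where the median over the whole list was 5.51. The RefSeq window matched for Fcgr3 (chr1:171059404-171059653) lay at another start than the annotated one used here, and no ATAC peak overlapped it. The peak at Lcp1 (chr14:75130601-75131208) covered the whole printed window, those at Cd68 (chr11:69666247-69666631) and H2-Aa (chr17:34287778-34287987) part of it.

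**Figure D5:**
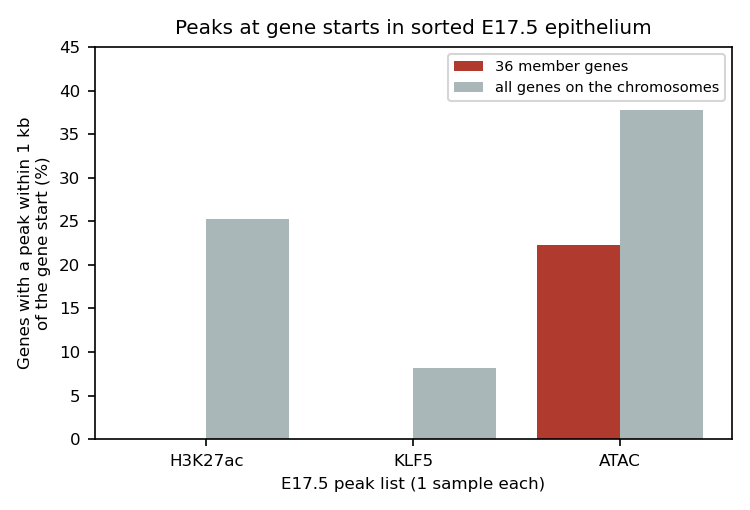
Share of the 36 members (red) and of all genes (grey) with a peak within 1 kb of the gene start in the H3K27ac, KLF5 and ATAC lists of sorted E17.5 epithelium, 1 sample each. The members have no bar for H3K27ac and KLF5, and their ATAC bar is below that of all genes.

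A window of 5 kb either side gave 3 members with H3K27ac (Cd68, Ltb and H2-Ab1), 1 with KLF5 and 11 with ATAC. The KLF5 peak had its summit at -4770 bases from the annotated start of Fcgr3, upstream of it (chr1:171069560-171069759, fold enrichment 3.74). That start is not the RefSeq start matched for the gene. These lists hold 1 sample each and come from cells selected against CD45, so no test was made on them and they describe the sorted epithelium.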

How the data were processed

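Gene counts came from 10 deposited RNA tables and had been made by the authors with STAR 2.6.0b and HTSeq on mm10, per the submitters' processing notes. The sources used here do not give their strand setting. Reads that name no gene, 13.4% to 16.9% of each library, were left out. The deposited HFD tables list RPKM as well, per the file headers; these matched the counts divided by gene length and library total, and no test used them. H3K27ac, KLF5 and ATAC peaks had been called by the authors with MACS2 after Bowtie alignment, per the submitters' processing notes. The deposited peak lists give a fold enrichment and a −log10 q for each peak, and both are the authors' values. HaCaT cell and IgG files were not used.

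Each set was fitted separately in edgeR 4.0.16 (R 4.3.3; TMM scaling, filterByExpr, robust quasi-likelihood test, Benjamini-Hochberg adjustment over all genes tested), and both sets together in a fit of 4 group means for the comparisons across sets. DESeq2 1.42.0 was an alternative. CPM used 1 TMM scaling over all 10 libraries, while fold changes came from the fits, so ratios of CPM can differ slightly from them. Standard errors are those of the log2 fold change. A fitted fold change of a gene with few counts in 1 group depends on edgeR's prior count. The scripts were tested on simulated data. Peaks were counted within 1 kb of the annotated gene start. Other settings were library totals, DESeq2's size factors, no low-count filter, a replicate block, each library left out, a 5 kb window and a stricter q.

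Members and gene lists were chosen with earlier results of these data known. All 36 members were described by role, with library values for those that passed a test or define a cell type. Of other lists, counts and up to 4 genes with the smallest p were named, along with ligands of the receptors described. Klf5 was given in every library. Others named, such as Hpgds, Adgre1, Cd163 and Itgax in HFD or the markers of other skin cells, were added after their values were seen.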

Additional observations from a re-analysis of the deposited data

Results flagged for a closer look

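The genotype difference differed between the 2 sets for 5 of 34 members, in the fit of all 10 libraries (edgeR adjusted p under 0.05). Over all genes 14.7% passed the same test, a share like that of the members. Cd163 stood at -4.91 on the log2 scale (HFD minus E17.5), Mrc1 at -2.62, Fcgr3 at -1.89 and Fcer1g at -1.51. Itgax stood at 2.18. Both HFD libraries labelled Klf5-/- lay above both labelled Klf5+/-, as for 27.8% of all genes, and the groups overlapped at E17.5. Of 15 other settings, the call was lost in 9 for Itgax (edgeR adjusted p up to 0.125), 7 for Cd163 (0.0747), 7 for Fcgr3 (0.122) and 5 for Fcer1g (0.089), and in 0 for Mrc1. Fibroblast and endothelial markers had negative values in the same test, and their part in these 5 differences was not tested.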

How the results depend on the processing

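In HFD, 4 members were called between the genotypes. The number was 8 without the low-count filter, 10 with DESeq2 and 7 in the fit of all 10 libraries. It ran from 0 to 16 when each library was left out, which leaves 1 library in a group that is assumed to vary like the others. It was lowest without the second and 1 without the first library labelled Klf5+/-, and 16 and 13 without the first and second labelled Klf5-/-. Over all genes, 872 calls became 36, 19, 5389 and 2681 in the same fits, 1340 with library totals, 2396 without the filter and 2871 with DESeq2. At E17.5, 0 members were called under each setting, while calls over all genes went from 13 to 237 without the filter, 447 with DESeq2, 513 when the Klf5-/- library numbered 3 was left out, 0 when that numbered 1 was, and 3 to 5 for each of the other 4. For the difference of the genotype effects, 5 members became 3 without the filter, 9 with DESeq2 and 1 to 8 with each library left out. Between the sets 25 to 29 members were called under the label Klf5+/- and 23 to 28 under Klf5-/-. For member starts with a peak, the 5 kb window gave 3 for H3K27ac and 1 for KLF5, and the stricter q gave 5 for ATAC. No value changed sign with a call. At E17.5 same-numbered libraries did not deviate together in every pair (correlations of 0.026, -0.10 and 0.18), and a pair of unlike numbers reached 0.20. In HFD, with 2 libraries per group, the check gives a single value apart from its sign (0.18 for same-numbered libraries). It therefore cannot decide whether the HFD numbers pair the libraries. With the replicate block the HFD fit called 3 members, Mrc1 being lost (-2.48, edgeR adjusted p = 0.0962), and 1520 genes, the E17.5 fit 0 members and 42 genes, and the difference fit 6 members. No paired analysis was possible between the sets because their replicate numbers belong to separate samples. The causes of these changes were not tested. At 0.0646 to 0.0943 CPM for 3 counts by library totals alone, depth limits Cd207, Cd8a and, at E17.5, Mcpt4, Clec10a and Cd163.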
